A study of Mus musculus with 4 samples.

Results

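The genes examined here are those of the mitochondrial respiratory chain downstream of complex I in mouse quadriceps: succinate dehydrogenase (complex II), the cytochrome bc1 complex (complex III), cytochrome c, cytochrome c oxidase (complex IV) and ATP synthase (complex V). They were chosen by gene symbol, as every row of the expression table named Sdha to Sdhd, Cyc1, Cycs, or beginning with Uqcr, Cox followed by a digit of the nuclear subunits, or Atp5. This gave 44 of 18091 rows, of which 40 encode subunits or cytochrome c. The other 4 are Cox7a2l, a supercomplex assembly factor, Atp5s and Atp5sl, which are named after ATP synthase without being core subunits, and Cox4nb, a neighbour of Cox4i1 that is not an oxidase subunit. Sdha, Uqcrb, Uqcr10, Cox7c, Cox8a, Atp5g1 and Atp5i were not analysed here.

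Messenger RNA of quadriceps from 2 male mice labelled Lin28a Tg (transgenic for Lin28a) and 2 wild-type (WT) males was hybridised to Illumina Ref-8 bead arrays, on which each probe reports a fluorescence intensity. All 4 mice, CD-1 in strain, were 5 weeks of age. The Lin28a protein binds RNA and blocks the maturation of let-7 microRNAs. No source used here gives the promoter behind the transgene or the number of founder lines. The labels number the replicates and say no more of how they were taken. The p-values therefore reflect the spread among these 4 arrays alone, and precision is limited by their number.

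The respiratory chain passes electrons from metabolites to oxygen and uses the energy to pump protons across the inner mitochondrial membrane. Complex II feeds electrons from succinate to ubiquinone without pumping, complex III hands them to cytochrome c, complex IV reduces oxygen, and ATP synthase lets the protons flow back to make ATP. Muscle depends heavily on this machinery, and slow, oxidative fibres hold more of it than fast, glycolytic ones. In mammals several subunits of complex IV exist in a form found in heart and skeletal muscle and a form found in most tissues.

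Most genes of the set read slightly lower in Lin28a Tg muscle, and none passed the test. The log2 fold change (Lin28a Tg minus WT) was negative for 30 of the 38 genes that exceeded background, against 46.7% of all 7891 genes tested. Both Lin28a Tg arrays lay below both WT arrays for 18 genes of the set (47.4%), against 16.8% of all genes tested, and above them for 2 (5.26%), against 21.6%. The median log2 fold change was -0.085, a fold of 0.942, against 0.0077 for all genes tested, and the genes of the set ran from -0.44 for Cox6c to 0.32 for Uqcrc1. With limma 0 of the 38 genes had an adjusted p under 0.05, as for all genes tested (0%), and the adjusted p of the set ran from 0.482 to 0.999. At an unadjusted p under 0.05, 5 genes were lower (3.81% of all genes tested) and 1 was higher (5.06%). The 5 lower genes were Cox7b, Uqcrh, Atp5e, Cox6c and Cox6b1, and the higher one was Uqcrc1. In whole muscle, fewer cells or fibres of a type and less RNA per cell cannot be told apart.

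**Figure D1:**
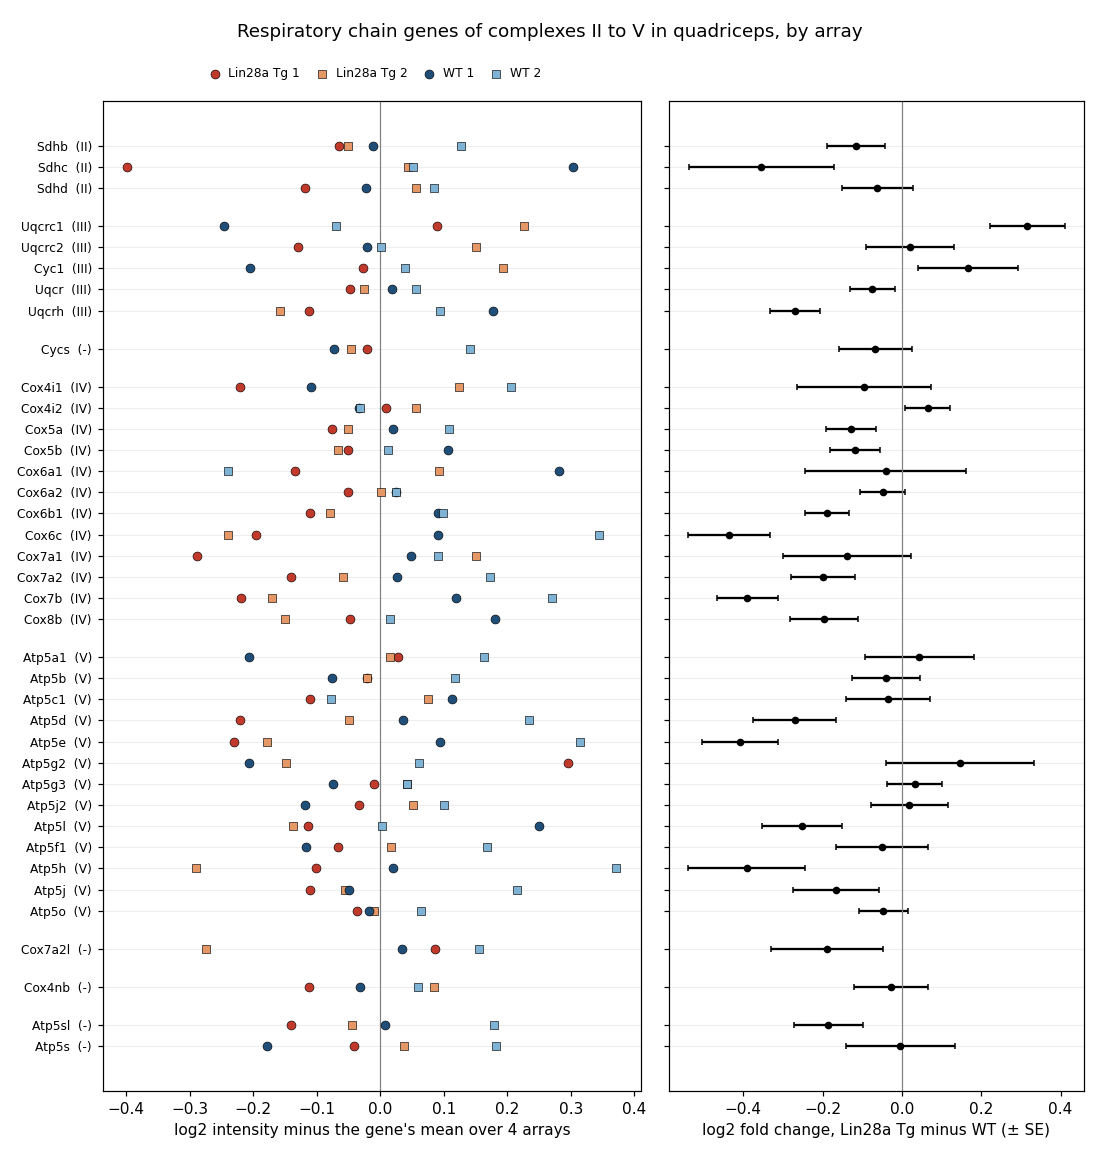
Left, log2 intensity of each of the 38 genes tested on each array, minus the mean of that gene over the 4 arrays, with the complex in parentheses. Right, the log2 fold change (Lin28a Tg minus WT) with its limma standard error. In 18 rows both Lin28a Tg points lie left of both WT points, and in 2 rows, Uqcrc1 and Cox4i2, they lie right of them.

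Some properties concern whole arrays. The arrays correlated pairwise at r = 0.976 to 0.990 across the genes tested, with WT replicate 1 the farthest from the others. The 9 hepatocyte markers that passed the filter, of 25, all read highest on that array, and the 25 markers summed to 2549 and 3040 on the Lin28a Tg arrays, against 28503 on WT replicate 1 and 2681 on WT replicate 2, although Alb was below background on all 4 arrays. Of 10 slow-fibre genes that passed the filter, 8 read highest on WT replicate 2. Their median log2 fold change was -0.25, with 8 negative (46.7% of all genes tested) and 2 positive. On both Lin28a Tg arrays 1 was lower (10%, against 16.8% of all genes tested) and 0 were higher (against 21.6%). The 12 slow-fibre genes in the table summed to 5106 and 8461 on the Lin28a Tg arrays, against 5096 and 14521 on the WT arrays, and the slow myosin gene Myh7 and the slow troponin gene Tnni1 were below background on all 4. Of 13 adipocyte markers 8 passed the filter, with a median log2 fold change of -0.099. Of these, 6 were negative (75%, against 46.7% of all genes tested). On Lin28a Tg replicate 1 5 read lowest, and on WT replicate 1 6 read highest. Without overlap 1 was lower (12.5%, against 16.8% of all genes tested) and 0 were higher (against 21.6%). The lower one was Cidec, a lipid droplet protein (log2 fold change -0.32, SE 0.097, limma adjusted p = 0.539). It read near background, at 90.3 and 85.7 in Lin28a Tg and 118.7 and 101.9 in WT muscle. The 13 summed to 15119.9 and 18587 on the Lin28a Tg arrays, against 18311 and 16647 on the WT arrays, and Retn, Slc36a2 and Pck1 were below background on all 4. All 11 genes used to define skeletal muscle, such as Acta1 and Ckm, exceeded background on every array. The Lin28a row was below the background threshold of 90.1 on every array, at 86.4 and 88.0 in Lin28a Tg and 82.9 and 82.6 in WT muscle, so it does not check the labels. The position of that probe was not analysed here.

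The mean deviation of the 38 genes from their own means over the 4 arrays was -0.087 and -0.023 log2 units on the Lin28a Tg arrays, and 0.0064 and 0.10 on the WT arrays. WT replicate 2, the array with the highest slow-fibre signal, gave the highest value for 22 of the 38 genes, and Lin28a Tg replicate 1 gave the lowest for 19. Without WT replicate 2 the median log2 fold change of the set was -0.052. In that comparison 20 genes were lower in Lin28a Tg than the remaining WT array (30% of all genes tested) and 11 were higher (39.7%). Without WT replicate 1, the array with the hepatocyte signal, the median was -0.15, with 28 genes lower (34%) and 3 higher (36.1%). Without Lin28a Tg replicate 1, 19 genes were lower (31.2%) and 6 higher (35.6%), and without Lin28a Tg replicate 2, 25 were lower (31.2%) and 3 higher (38.6%). The part of slow-fibre or adipocyte content in the difference was not tested.

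**Figure D2:**
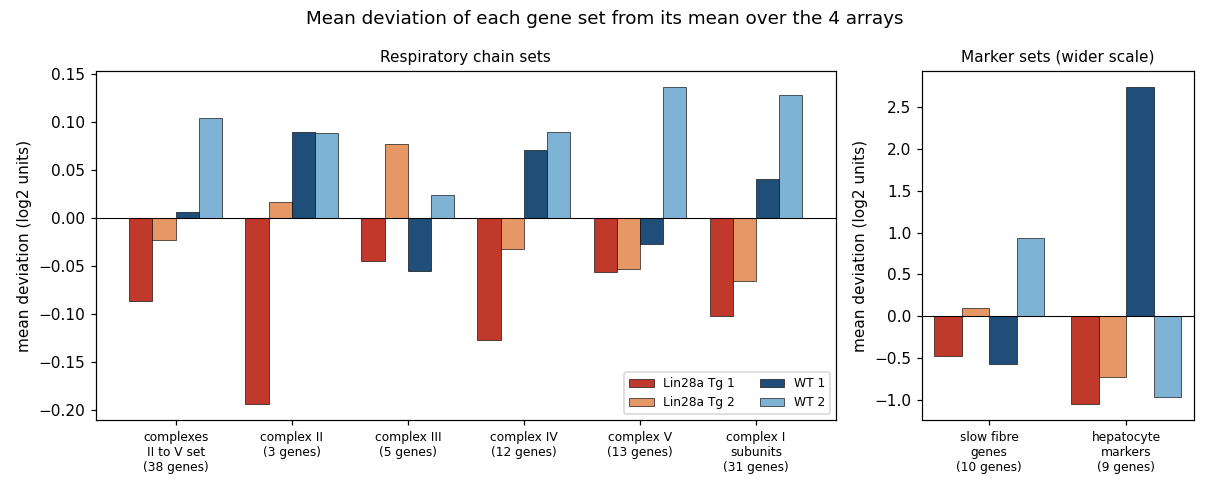
Mean deviation of each gene set from its mean over the 4 arrays, in log2 units, on each array, with the number of genes tested in parentheses. Slow-fibre and hepatocyte markers are drawn on a wider scale. The whole set stood at -0.087 and -0.023 on the Lin28a Tg arrays and at 0.0064 and 0.10 on the WT arrays, while slow-fibre genes peaked on WT replicate 2 and hepatocyte markers on WT replicate 1.

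Sequences just upstream of the start sites are printed for genes that stand for the patterns described below: Uqcrh, Cox7b and Atp5h, which read lower in Lin28a Tg muscle, Uqcrc1, which read higher, and Cox6a1 and Cox7a1, a ubiquitous and a muscle form of complex IV subunits. Each is the 250 bases before the start, 5′ to 3′ on the strand of the gene, from RefSeq on GRCm38.p6. Of the 44 genes, 33 were matched to this table. Capitals mark matches to the letters of 4 motifs, searched on both strands. These were NRF1 (GCGCA, any base, then GCGC), the ETS factor GABP (CCGGAAG), the oestrogen-related receptors (TNAAGGTCA) and MEF2. For MEF2 a loose form was searched, CTA and TAG with any 4 bases between them. NRF1 and GABP are known activators of nuclear genes for mitochondrial proteins.
Uqcrh, chr4:116075071-116075320, minus strand: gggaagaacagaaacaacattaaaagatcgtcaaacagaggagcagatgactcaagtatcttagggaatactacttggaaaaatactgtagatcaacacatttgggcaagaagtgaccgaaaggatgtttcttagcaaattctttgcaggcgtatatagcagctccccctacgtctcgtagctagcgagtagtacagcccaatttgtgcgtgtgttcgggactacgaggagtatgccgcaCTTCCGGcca
Cox7b, chrX:106015450-106015699, plus strand: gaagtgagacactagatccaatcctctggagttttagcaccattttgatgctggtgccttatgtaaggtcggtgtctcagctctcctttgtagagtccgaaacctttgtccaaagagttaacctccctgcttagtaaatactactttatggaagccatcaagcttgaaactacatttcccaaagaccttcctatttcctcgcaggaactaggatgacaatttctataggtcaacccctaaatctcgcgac
Atp5h, chr11:115419920-115420169, minus strand: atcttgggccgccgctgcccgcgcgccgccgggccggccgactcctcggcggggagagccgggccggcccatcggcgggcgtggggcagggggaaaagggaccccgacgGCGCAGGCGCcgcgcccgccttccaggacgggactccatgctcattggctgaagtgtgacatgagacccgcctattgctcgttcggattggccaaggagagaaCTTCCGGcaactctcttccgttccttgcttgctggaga
Uqcrc1, chr9:108936398-108936647, plus strand: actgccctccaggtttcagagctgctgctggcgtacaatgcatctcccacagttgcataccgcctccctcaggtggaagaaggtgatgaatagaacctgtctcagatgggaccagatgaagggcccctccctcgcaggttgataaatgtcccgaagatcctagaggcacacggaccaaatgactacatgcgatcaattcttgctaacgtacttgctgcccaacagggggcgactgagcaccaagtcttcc
Cox6a1, chr5:115348959-115349208, minus strand: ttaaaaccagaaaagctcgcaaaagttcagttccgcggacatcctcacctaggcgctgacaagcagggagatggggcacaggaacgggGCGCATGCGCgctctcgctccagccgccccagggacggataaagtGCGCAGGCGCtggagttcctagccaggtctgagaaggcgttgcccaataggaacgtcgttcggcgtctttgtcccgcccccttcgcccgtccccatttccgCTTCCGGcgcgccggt
Cox7a1, chr7:30183921-30184170, plus strand: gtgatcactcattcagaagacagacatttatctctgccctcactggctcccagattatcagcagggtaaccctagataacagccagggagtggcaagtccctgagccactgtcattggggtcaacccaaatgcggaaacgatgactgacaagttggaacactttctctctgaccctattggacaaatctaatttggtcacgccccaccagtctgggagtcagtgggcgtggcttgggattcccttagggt

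The GABP letters were present in 8 of 33 promoters of the set (24.2%), against 9.12% of the promoters of 17491 protein-coding genes, and the NRF1 letters in 5 (15.2%), against 5.30%. The letters of the loose MEF2 form were found in 1 (3.03%), against 3.05%, and the receptor motif in 1 (3.03%), against 0.972%. A match is a description of letters and not of a bound site. Among the 6 sequences shown, Cox6a1 held 3 matches, Atp5h held 2 and Uqcrh held 1. Cox7b, Uqcrc1 and Cox7a1 held none in this window.

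Complex II was represented by only 3 genes, all with negative log2 fold changes (46.7% of all genes tested) and a median of -0.12. On both Lin28a Tg arrays 2 were lower (66.7%, against 16.8% of all genes tested) and 0 were higher (against 21.6%). Sdhb, the subunit that carries the iron-sulfur clusters, read 575.8 and 581.9 in Lin28a Tg muscle, against 597.4 and 658.2 in WT muscle. The groups did not overlap, and the log2 fold change was -0.12 (SE 0.073, limma adjusted p = 0.741). That value was -0.046 without WT replicate 2 and -0.19 without WT replicate 1. Sdhc, a membrane anchor, read 1308 and 1777 in Lin28a Tg muscle and 2127 and 1787 in WT muscle. Its groups did not overlap either, but Lin28a Tg replicate 2 lay close to WT replicate 2. The log2 fold change was -0.35 (SE 0.18, limma adjusted p = 0.697). It was -0.13 without Lin28a Tg replicate 1, -0.58 without Lin28a Tg replicate 2 and -0.23 without WT replicate 1. Sdhd, the other anchor, read near background, at 86.8 and 98.0 in Lin28a Tg and 92.8 and 99.97 in WT muscle, and its groups overlapped. Its log2 fold change of -0.063 (SE 0.089) was -0.19 after normexp with an offset of 16, which also moved the median of complex II to -0.19.

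In complex III, 2 of the 5 genes tested were lower on both Lin28a Tg arrays (16.8% of all genes tested), 1 was higher (21.6%) and 2 overlapped. Uqcrh, the acidic hinge protein that helps cytochrome c1 bind cytochrome c, read 10545 and 10219 in Lin28a Tg muscle, against 12886 and 12163 in WT muscle. Both Lin28a Tg values lay well below both WT values, at a fold of 0.829 (log2 -0.27, SE 0.064, limma adjusted p = 0.508). With each array left out in turn, the log2 fold change ran from -0.31 to -0.23, and repeated quantile normalization gave -0.21. Uqcr, the smallest subunit (now named Uqcr11), was at -0.074 (SE 0.057).

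Uqcrc1, a core subunit on the matrix side, was the gene of the set with the highest fold. It read 4851 and 5333 in Lin28a Tg muscle, against 3843 and 4341 in WT muscle, a mean of 5092 ± 341 against 4092 ± 352 (SD, n = 2 each). The groups did not overlap, and the fold was 1.25 (log2 0.32, SE 0.094, limma adjusted p = 0.539). With each array left out in turn it ran from 0.23 to 0.40. Uqcrc2, its partner in the core, was at 0.021 (SE 0.11) with overlapping groups, and at -0.12 without Lin28a Tg replicate 2. Cyc1, which carries the haem that reduces cytochrome c, read 2749.8 and 3202 in Lin28a Tg muscle and 2429 and 2877 in WT muscle, with overlapping groups and a log2 fold change of 0.17 (SE 0.13). That value was 0.044 without WT replicate 1 and 0.057 without Lin28a Tg replicate 2, against 0.28 without Lin28a Tg replicate 1 and 0.29 without WT replicate 2. Over the 5 genes the median was 0.021. It was 0.16 without Lin28a Tg replicate 1 and -0.085 without Lin28a Tg replicate 2. It was -0.035 with no filter and -0.013 with repeated quantile normalization.

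Uqcrfs1, the Rieske iron-sulfur protein that takes electrons from ubiquinol, and Uqcrq, an accessory subunit, did not exceed background on at least 2 arrays and were not tested. Cycs, the soluble carrier between complexes III and IV, read 102.0 and 100.3 in Lin28a Tg muscle and 98.4 and 114.1 in WT muscle. The groups overlapped, at a log2 fold change of -0.067 (SE 0.092), or -0.15 with normexp at an offset of 16.

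Most complex IV genes read below WT. Of the 12 genes tested, 11 had a negative log2 fold change and 8 were lower on both Lin28a Tg arrays (66.7%), against 46.7% and 16.8% of all genes tested, with a median of -0.13. With each array left out in turn that median ran from -0.18 to -0.12. Cox7b, a subunit that occurs in most tissues, had the smallest p of the set. It read 108.4 and 112.1 in Lin28a Tg muscle, against 137.0 and 152.2 in WT muscle, a mean of 110.2 ± 2.62 against 144.6 ± 10.7 (SD, n = 2 each). The log2 fold change was -0.39 (SE 0.077, limma adjusted p = 0.482). Background was not subtracted from these dim values, and normexp correction with an offset of 16 gave -0.75.

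Cox6c, a single-form subunit, read 2669 and 2586 in Lin28a Tg muscle, against 3255 and 3879 in WT muscle. Its fold was 0.739 (log2 -0.44, SE 0.10, limma adjusted p = 0.508), the lowest of the set on the deposited scale, and WT replicate 2 was the highest array. The log2 fold change was -0.31 without that array. With normexp at an offset of 16, Cox6c stood at -0.44 and both Cox7b and Atp5e were lower. Cox6b1, which joins the monomers of the oxidase on the intermembrane side, read 11447 and 11696 in Lin28a Tg muscle, against 13162 and 13232 in WT muscle. Each pair was tight and the groups were apart, at a log2 fold change of -0.19 (SE 0.056, limma adjusted p = 0.539). Repeated quantile normalization gave -0.12. Cox5a and Cox5b, single-form subunits beside the core, were at -0.13 (SE 0.063) and -0.12 (SE 0.064), both without overlap. Cox5a was at -0.084 without WT replicate 2, and Cox5b at -0.071 without WT replicate 1.

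Muscle and ubiquitous forms of complex IV subunits were both represented, and the classes were not tested against each other. The 3 muscle forms had a median log2 fold change of -0.14 and the 5 ubiquitous forms one of -0.19, the value of Cox6b1. Of those 5, only Cox6a1 (-0.041) and Cox7a2 (-0.20) are counterparts of muscle forms in the set. Cox4i1, Cox6b1 and Cox7b are not, so the medians do not compare matched forms. Cox8b, a muscle form of subunit VIII, read 13061 and 12163 in Lin28a Tg muscle, against 15299 and 13638 in WT muscle, without overlap (log2 fold change -0.20, SE 0.086, limma adjusted p = 0.633). Without WT replicate 1 it was at -0.11. Cox6a2, the muscle form of subunit VIa, read 16324 and 16921 in Lin28a Tg muscle and 17192 on both WT arrays. In the set 3 genes held equal values on 2 arrays. After normalization, values of equal rank were almost the same on every array, so such equality does not measure spread. The groups of Cox6a2 did not overlap, with a log2 fold change of -0.049 (SE 0.057). It was -0.023 without Lin28a Tg replicate 1, -0.075 without Lin28a Tg replicate 2 and -0.074 with repeated quantile normalization. Cox6a1, its ubiquitous counterpart, read 1055 and 1235 in Lin28a Tg muscle and 1408 and 980.2 in WT muscle, where the WT pair spanned both Lin28a Tg values (log2 fold change -0.041, SE 0.20).

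Cox7a1, the muscle form of subunit VIIa, read 11137 and 15110.4 in Lin28a Tg muscle and 14069 and 14496 in WT muscle. Lin28a Tg replicate 1 was low and replicate 2 the highest of all 4, and the log2 fold change of -0.14 (SE 0.16) was 0.081 without Lin28a Tg replicate 1. Cox7a2, the ubiquitous form, read 123.1 and 130.2 in Lin28a Tg muscle, against 138.1 and 153.0 in WT muscle, without overlap (log2 fold change -0.20, SE 0.080, limma adjusted p = 0.584), and normexp with an offset of 16 gave -0.36. Without WT replicate 2 it was at -0.13. Cox4i1, the common form of subunit IV, read 6252 and 7936 in Lin28a Tg muscle and 6754 and 8398 in WT muscle. The groups overlapped, with replicate 2 the higher in both (log2 fold change -0.097, SE 0.17). Cox4i2, the form known from lung, was dim and slightly higher on both Lin28a Tg arrays, at 103.6 and 107.0 against 100.6 and 100.7 in WT muscle (log2 fold change 0.065, SE 0.057). Normexp with an offset of 16 gave 0.16, and leaving out Lin28a Tg replicate 2 gave 0.041. Cox6b2, Cox7b2 and Cox8c, forms known from testis, did not exceed background on any array.

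**Figure D3:**
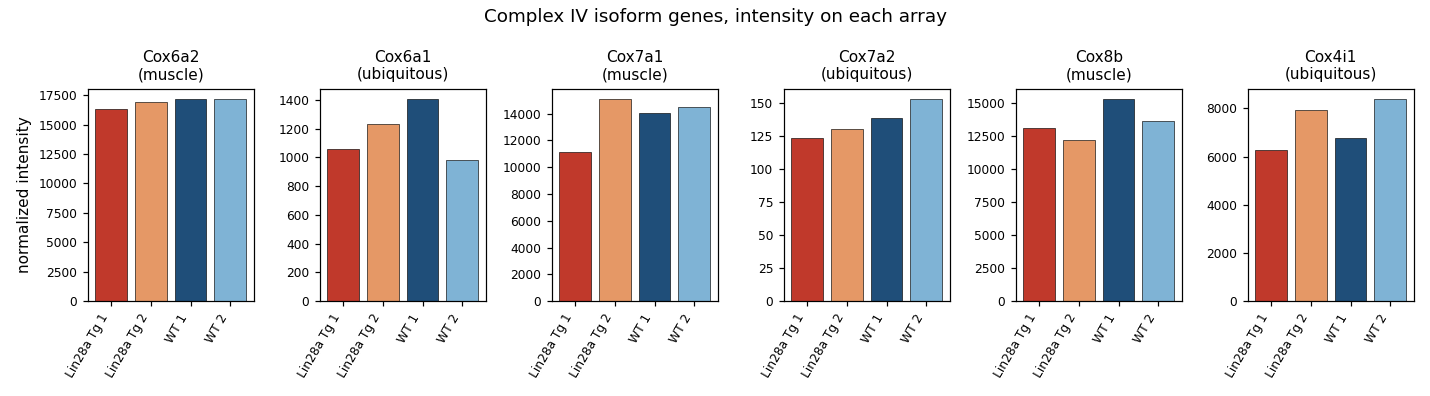
Normalized intensity on each array of 3 muscle forms (Cox6a2, Cox7a1, Cox8b) and 3 ubiquitous forms (Cox6a1, Cox7a2, Cox4i1) of complex IV subunits, each on its own axis from 0. Bars are single arrays. The groups do not overlap for Cox8b, Cox7a2 and Cox6a2, and they overlap for Cox6a1, Cox7a1 and Cox4i1.

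The balance between muscle and ubiquitous forms was compared for the 2 pairs in which both genes were present. The log2 ratio of Cox6a2 to Cox6a1 differed by -0.0075 (SE 0.28) between Lin28a Tg and WT muscle, and that of Cox7a1 to Cox7a2 by 0.061 (SE 0.19). Both had an exact permutation p of 1 (two-sided, adjusted p = 1 over 2 pairs), in a design that cannot go below 0.333. With each array left out in turn the first difference ran from -0.27 to 0.25 and the second from -0.12 to 0.24. Normexp with an offset of 16 gave -0.0065 for the first and 0.22 for the second, in which Cox7a2 is dim.

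In complex V, 9 of 13 genes tested had a negative log2 fold change, 5 were lower on both Lin28a Tg arrays (38.5%) and 0 were higher, with a median of -0.047. Of all genes tested, 46.7% were negative, 16.8% lower and 21.6% higher by the same measures. That median was -0.0062 without WT replicate 2 and -0.14 without WT replicate 1. In the catalytic head, Atp5a1 and Atp5b, which encode the alpha and beta subunits, were at 0.044 (SE 0.14) and -0.041 (SE 0.086), with overlapping groups. Atp5a1 was dim, at 146.7 to 189.5 over the arrays, against 22490 to 25714 for Atp5b. Background was left in these values, and normexp with an offset of 16 gave 0.078 for Atp5a1. Atp5a1 was at -0.14 without WT replicate 1, and Atp5b at 0.055 without WT replicate 2. The 3 genes of the central stalk, the rotor shaft, had a median of -0.27.

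Atp5e, the epsilon subunit of the stalk, read 114.1 and 118.2 in Lin28a Tg muscle, against 142.9 and 166.3 in WT muscle. The groups did not overlap, and the log2 fold change was -0.41 (SE 0.095, limma adjusted p = 0.508), or -0.75 with normexp at an offset of 16. Atp5d, the delta subunit, read 1160.2 and 1307 in Lin28a Tg muscle, against 1387 and 1591 in WT muscle, also without overlap (log2 fold change -0.27, SE 0.11, limma adjusted p = 0.579), and at -0.17 without WT replicate 2. Atp5c1, the gamma subunit, was at -0.035 (SE 0.11) with overlapping groups, and ran from -0.13 to 0.060 with each array left out in turn.

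Among the 4 peripheral stalk genes, which hold the head still, Atp5h, subunit d, differed most. It read 638.2 and 559.8 in Lin28a Tg muscle, against 693.9 and 886.1 in WT muscle, and WT replicate 2 stood well above the rest. The log2 fold change was -0.39 (SE 0.15, limma adjusted p = 0.576), and -0.22 without that array. The other 3, Atp5f1, Atp5j and Atp5o, were between -0.17 and -0.047. Without WT replicate 2, Atp5j was at -0.034, Atp5o at -0.0062 and Atp5f1 at 0.092. The genes for subunit c, which forms the membrane ring that turns, had log2 fold changes above 0 with overlapping groups. Atp5g2 read 1331 and 978.2 in Lin28a Tg muscle and 939.2 and 1132 in WT muscle (log2 fold change 0.15, SE 0.19), and Atp5g3 read 19189.7 and 19875 in Lin28a Tg muscle and 18349 and 19875 in WT muscle (0.032, SE 0.070). Of the accessory membrane subunits, Atp5l was at -0.25 (SE 0.10) without overlap and at -0.13 without WT replicate 1, Atp5j2 stood at 0.018 (SE 0.097), or -0.091 when that array was dropped, and Atp5k did not exceed background on any array.

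The 6 genes that were not tested read 80.1 to 91.1 over all arrays. Several of them encode subunits that the intact complexes need, and a probe that reads at background does not show that the transcript was absent. Probe positions were not analysed, so signal shared with pseudogenes or close relatives of these genes cannot be separated here.

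The set was also divided by intensity. Among the 20 genes above 2000 on all 4 arrays the median log2 fold change was -0.085 and 10 were lower without overlap, a pattern that 16.8% of all genes tested showed. Among the 10 genes below 250 on all arrays the median was -0.065, or -0.17 with normexp at an offset of 16, and 4 were lower without overlap. The 8 genes between had a median of -0.15, with 4 lower without overlap. At the bright end 14 of the set were among the 100 brightest rows of the table.

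**Figure D4:**
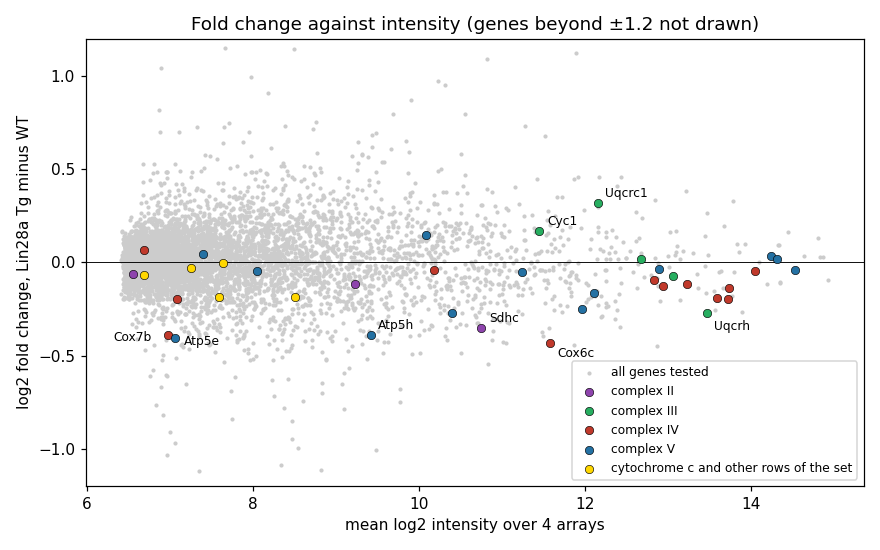
Log2 fold change (Lin28a Tg minus WT) against mean log2 intensity over the 4 arrays for the 7891 genes tested (grey) and the 38 genes of the set, coloured by complex. The axis ends at ±1.2, which leaves out 28 other genes. Cox6c, Atp5e, Atp5h and Cox7b lie lowest of the set at -0.44 to -0.39 and Uqcrc1 highest at 0.32.

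Complexes II to V were set beside complex I and beside the genes that build and serve the chain, without a test between the sets. In complexes II to V, 18 of 38 genes were lower without overlap with a median of -0.085, and in complex I 15 of 31 (48.4%) with a median of -0.15, against 16.8% of all genes tested. Complex I also had 10 genes lower at an unadjusted limma p under 0.05 (3.81% of all genes tested) and 0 higher (5.06%). The complex I genes with the smallest p were Ndufa6, at 4808 and 4949 in Lin28a Tg and 6149 and 6282 in WT muscle, and Ndufb5, at a log2 fold change of -0.48 (SE 0.083). Neither passed (limma adjusted p = 0.482 for both).

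Of 23 assembly factors of complexes II to V tested, 6 were lower (26.1%, against 16.8% of all genes tested) and 3 higher (13.04%, against 21.6%) without overlap, with a median of -0.068. Coa6, which helps deliver copper to complex IV, read 249.9 and 301.8 in Lin28a Tg muscle, against 347.3 and 440.0 in WT muscle (log2 fold change -0.51, SE 0.16). Ttc19, needed for complex III, read 376.4 and 333.5 in Lin28a Tg muscle, against 290.0 and 300.4 in WT muscle (log2 fold change 0.26, SE 0.083). The limma adjusted p was 0.539 for both.

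The carriers and partners of ATP synthase had a median log2 fold change of 0.079 over 8 genes, with 1 lower (12.5%, against 16.8% of all genes tested) and 2 higher (25.0%, against 21.6%) without overlap. Slc25a5, an ADP/ATP carrier, was at 0.21 (SE 0.085) and Vdac3, an outer membrane channel, at -0.14 (SE 0.067). Coenzyme Q synthesis genes had a median of 0.017 over 10 genes, none of them without overlap. Coq7 was at 0.14 (SE 0.096) and Coq2 at -0.26 (SE 0.21). Regulators of mitochondrial biogenesis had a median of -0.021 over 11 genes, with 2 lower (18.2%, against 16.8% of all genes tested) and 0 higher (against 21.6%) without overlap. Tfam, which packages and transcribes mitochondrial DNA, was at -0.077 (SE 0.055) and the receptor gene Esrra at -0.11 (SE 0.11). No gene of these lists passed an adjusted p of 0.05 with limma.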

How the data were processed

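RNA from quadriceps was extracted and labelled as biotinylated cRNA, per the labels' protocols. The deposited intensities hold 1 row per gene symbol on a linear scale. Between-array normalization by the authors is visible in the values, since those of equal rank differed by a median of 0.0916%, and the lowest value of 72.8 shows that background was left in. No source used here names the software or the probe summary. The other deposited table was left out, because its 8 value columns match no sample label.

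Symbols were updated through RefSeq (14090 were current, 3065 matched an older symbol, 50 matched several and 886 matched none), and the brightest row per symbol was kept, leaving 17904 genes. Background was the mode of all log2 values (84.8, SD 0.053 on the log2 scale). The 7891 genes above 90.1 (1.645 SD over that mode) on 2 or more arrays entered limma 3.58.1 (R 4.3.3) as log2 values (lmFit, then eBayes), two-sided, with Benjamini-Hochberg adjustment over all of them. The fit was tested on simulated data. Isoform ratios were compared with an exact permutation test in Python 3.11.15.

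Genes named with full values were the isoform pairs, Cox4i1, Cycs, Sdhb to Sdhd, the subunit c genes, and per complex the 3 with the smallest p and those with the lowest and highest fold change. Other lists give the 2 with the smallest p. Further genes of the set, named to complete a role, were added after their values were seen. Lower and higher without overlap means that both Lin28a Tg arrays lay on 1 side of both WT arrays. The set, the lists and the rules were chosen with earlier results of these data known. Cox4nb, which the symbol pattern took in, was classed after the table was read. Alternatives tried were a pseudocount of 16, dropping the filter, raising it to 94.6, keeping duplicate rows, trended robust eBayes, an adjusted p under 0.10, the replicate number as a block, normexp with offsets of 16 and 50, centring on the median, repeated quantile normalization and leaving out each array.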

Additional observations from a re-analysis of the deposited data

How the results depend on the processing

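No alternative gave a gene of the set an adjusted p under 0.05 with limma, and 0 passed at 0.10. At an unadjusted p under 0.05 with all arrays, 5 genes of the set were lower (3.81% of all genes tested) and 1 was higher (5.06%). Without WT replicate 2, 15 of all 7891 genes passed, with no gene of the set among them. The smallest adjusted p in the set ranged from 0.414 to 0.931 over the alternatives. With the replicate number as a block, 0 genes were called. Each group holds both replicate numbers, so the block cannot change a log2 fold change. The median of -0.085 was therefore fixed in advance and is no check. Replicate numbers are not stated to pair the samples: over the genes tested, deviations of same-numbered arrays correlated at 0.0366. By the same layout the block could not move the isoform differences of -0.0075 and 0.061.

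The median of the set stayed negative throughout, from -0.15 (without WT replicate 1) to -0.052 (without WT replicate 2) with 1 array left out. The same range was -0.19 to -0.046 for complex II, -0.085 to 0.16 for complex III, -0.18 to -0.12 for complex IV and -0.14 to -0.0062 for complex V. The complex III median also turned negative with no filter (-0.035) and with repeated quantile normalization (-0.013). Genes lower without overlap numbered 19 to 28 and genes higher 3 to 11 with 1 array left out, against 30% to 34% and 35.6% to 39.7% of all genes tested. Normexp with an offset of 16 took complex II to -0.19, and the stricter filter took it to -0.24, because it drops Sdhd. The Cox6a2 difference from Cox6a1 ran from -0.27 to 0.25 (0.080 without Lin28a Tg replicate 2) and that of Cox7a1 from Cox7a2 from -0.12 to 0.24.

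Of the named genes, Cox6a1 ran from -0.30 to 0.22 with 1 array left out (positive without Lin28a Tg replicate 1, at 0.072, and without WT replicate 1), Cox7a1 from -0.36 to 0.081, Cox4i1 from -0.27 to 0.076 (also 0.061 without WT replicate 2), Cycs from -0.17 to 0.040, Sdhd from -0.15 to 0.025, Atp5g2 from -0.076 to 0.37 and Atp5g3 from -0.025 to 0.090. Beyond the arrays left out, the cause was not tested. Values near background limit Sdhd (-0.19 with normexp at an offset of 16), Cycs (-0.15) and Cox4i2 (0.16).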

Other observations

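The 4 rows that the symbol pattern took in without their being subunits all had log2 fold changes below 0 (46.7% of all genes tested). Of them, 1 was lower without overlap (25%, against 16.8% of all genes tested) and 0 were higher (against 21.6%). Cox7a2l, which joins complexes III and IV into supercomplexes, read 388.3 and 302.2 in Lin28a Tg muscle and 374.3 and 407.2 in WT muscle, at -0.19 (SE 0.14) with overlapping groups. It was -0.0076 without Lin28a Tg replicate 2 and -0.37 without Lin28a Tg replicate 1. Atp5sl (now Dmac2), a gene tied to complex I assembly in human cells, read 175.5 and 187.7 in Lin28a Tg muscle, against 194.5 and 219.1 in WT muscle, without overlap (log2 fold change -0.19, SE 0.087, limma adjusted p = 0.655), and was at -0.10 without WT replicate 2. Atp5s was at -0.0040 and Cox4nb (now Emc8) at -0.028, both with overlapping groups and both positive without Lin28a Tg replicate 1 (0.035 and 0.071). With normexp at an offset of 16, Atp5s was at 0.00069.

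Cox8b is also a marker of brown fat. Of the 7 brown adipocyte genes listed, which include Cox8b, 3 (Elovl3, Dio2 and Otop1) were below background on all arrays. Ucp1, the defining gene of brown fat, read 91.3 and 95.6 in Lin28a Tg muscle and 96.8 and 100.6 in WT muscle. These values were near the background threshold but above it on all 4 arrays. The groups of Ucp1 did not overlap (log2 fold change -0.079, SE 0.062, limma adjusted p = 0.798). Cidea read 99.1 and 273 in Lin28a Tg muscle and 248 and 158 in WT muscle, and Ppargc1a, which muscle also expresses, read 101.7 and 106 in Lin28a Tg muscle and 97.1 and 109 in WT muscle, both above background on all 4 arrays with overlapping groups.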
